A study of Mus musculus with 27 samples.

Results

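Plasma membrane repair genes were followed through cardiotoxin injury of mouse muscle. The 8 genes were Dysf, Trim72, Cav3, Anxa1, Anxa2, Anxa5, Anxa6 and Chmp4b, taken by gene name from both deposited tables of TPM (the share of a library's transcripts, adjusted for gene length, on a scale whose sum is fixed). Each name matched 1 entry in each table, out of 55852 entries in the table of injured muscle and 55677 in the table that also holds control muscle. RNA came from male mice of the C57BL/6J line (WT) and from mice with a whole-body loss of Gsdme (labelled KO in the titles and knockdown in the genotype field). Gsdme encodes gasdermin E, which forms pores in the plasma membrane after a caspase cuts it. The injured groups were WT and KO muscle 1, 4, 7 and 14 days after cardiotoxin (D1 to D14), a toxin of snake venom that breaks open muscle fibres. It was injected into gastrocnemius (the design text names thigh muscle for the first experiment). The control group was WT muscle without cardiotoxin, described as the uninjured muscle of the opposite leg in the study and as unloaded muscle in the deposited design. Each of the 9 groups had 3 libraries, described as biological triplicates, and ages were not given in the sources used here.

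A tear in the muscle fibre membrane lets calcium in, and the repair machinery answers by moving vesicles and membrane-binding proteins to the tear. Dysferlin (Dysf) is a calcium-binding membrane protein that promotes fusion of vesicles at the wound, MG53 (Trim72) is a muscle E3 ligase that gathers vesicles there, and caveolin-3 (Cav3) shapes the caveolae of the fibre surface and binds both. Annexins A1, A2, A5 and A6 (Anxa1, Anxa2, Anxa5 and Anxa6) bind membrane phospholipid when calcium rises and form a cap over the wound. Chmp4b is a subunit of ESCRT-III, the filament that pinches off damaged membrane. Loss of dysferlin or caveolin-3 causes muscular dystrophy. Annexins and Chmp4b are made in many cell types, leukocytes and connective tissue cells among them, whereas Trim72 and Cav3 are largely genes of striated muscle.

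In GRCm38 (mm10, GENCODE vM21) the genes lie on 7 chromosomes. The sensor and patch genes are Dysf at chr6:84008590-84211060, Trim72 at chr7:128003949-128011033 and Cav3 at chr6:112459505-112472872, all on the plus strand. The annexin genes are Anxa1 at chr19:20373428-20390944, Anxa5 at chr3:36448923-36475894 and Anxa6 at chr11:54979108-55033445 on the minus strand, and Anxa2 at chr9:69453620-69491795 on the plus strand. Chmp4b lies at chr2:154651705-154694785 on the plus strand. Antisense genes share exon bases with Trim72 (617, with Gm15533), Dysf (352 with Gm15475 and 105 with Gm33024) and Anxa2 (98, with Gm16144), and since strand use in counting was not given in the sources used here, reads of these pairs cannot be told apart. The values are therefore values of the locus for those 3 genes.

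The 250 bases before the RefSeq start (GRCm38.p6) are shown for the 3 sensor and patch genes and for Anxa2, which had the largest difference after injury. Capitals mark matches to 3 short motifs searched on both strands, namely the E-box CAGCTG, the MCAT motif CATTCC and the AP-1 motif TGANTCA, none of which overlap here.
Dysf, upstream start (chr6:84008348-84008597, plus strand): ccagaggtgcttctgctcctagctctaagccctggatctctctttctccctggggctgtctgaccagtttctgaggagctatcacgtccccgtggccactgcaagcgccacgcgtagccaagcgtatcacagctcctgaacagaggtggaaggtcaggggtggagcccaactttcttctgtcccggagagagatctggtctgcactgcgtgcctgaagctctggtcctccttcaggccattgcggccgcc
Trim72 (chr7:128004128-128004377, plus strand): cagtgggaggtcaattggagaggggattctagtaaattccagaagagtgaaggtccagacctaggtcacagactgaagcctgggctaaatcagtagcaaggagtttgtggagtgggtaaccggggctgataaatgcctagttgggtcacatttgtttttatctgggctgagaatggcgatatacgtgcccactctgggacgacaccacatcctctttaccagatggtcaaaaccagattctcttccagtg
Cav3 (chr6:112459255-112459504, plus strand): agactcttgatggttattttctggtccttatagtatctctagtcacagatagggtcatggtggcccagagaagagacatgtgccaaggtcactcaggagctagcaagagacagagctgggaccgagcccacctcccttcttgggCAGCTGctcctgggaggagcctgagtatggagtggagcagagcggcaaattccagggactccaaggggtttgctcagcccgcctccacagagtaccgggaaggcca
Anxa2 (chr9:69453433-69453682, plus strand): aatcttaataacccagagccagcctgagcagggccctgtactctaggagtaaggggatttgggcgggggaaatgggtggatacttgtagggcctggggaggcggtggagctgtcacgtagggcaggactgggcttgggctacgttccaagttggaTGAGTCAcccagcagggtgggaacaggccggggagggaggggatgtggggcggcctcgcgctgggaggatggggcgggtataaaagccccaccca
The Cav3 window held an E-box starting 106 bases before the start, and the Anxa2 window held an AP-1 match starting 95 bases before the start. The Dysf and Trim72 windows held no match to these letters. Among all 32851 RefSeq windows of this length, 13.0% held the E-box, 12.6% the MCAT motif and 6.75% the AP-1 motif. A window was available for 7 of the 8 genes, and Anxa1 and Chmp4b each had 1 MCAT match in theirs.

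Gsdme itself was measured in every library as a check of the labels. It stood at 2.76, 4.85 and 3.16 TPM in WT and 1.53, 1.28 and 2.17 in KO at D1, 3.02, 2.67 and 2.63 against 1.36, 1.00 and 1.64 at D4, and 2.51, 1.80 and 2.15 against 1.37, 1.01 and 0.950 at D7. KO libraries lay below all WT libraries on those 3 days, whereas at D14 the values overlapped (1.46, 2.21 and 2.26 in WT, 1.96, 1.77 and 1.27 in KO), and no KO library was at 0. With genotypes exchanged within days, the average log2 difference of -0.55 had an exact 2-sided permutation p of 8.75e-05, and limma over all genes gave adjusted p = 0.0664. Libraries had between 11785 and 14704 genes at 1 TPM or more. KO D4 replicate 2 stood apart from the other D4 libraries, with 12961 such genes, 139.7 summed TPM of 10 regenerating muscle genes (2814 to 4383 in the other D4 libraries) and 518 of 14 leukocyte genes (3063 to 6672). All 20 mature myofibre markers were detected in every group (mean of 0.5 TPM or more), with a summed level of 55190 TPM or more in each library. Read depth could not be recovered from TPM.

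The first comparison asked how the repair genes stood 1 day after injury, in the table that holds control and WT D1 muscle. All 8 genes were higher at WT D1 than in control, from 1.44-fold for Cav3 to 5.35-fold for Anxa2 on the log2(TPM + 1) scale. In that comparison 55.4% of all 13041 tested genes were called higher and 5.64% lower (limma, Benjamini-Hochberg adjusted p under 0.05), and the median gene was 0.66 log2 units higher, so the count of 8 is read against a table in which most genes were called higher. All 8 also had every WT D1 library above every control library, as 64.2% of all genes did. The smallest 2-sided exact permutation p for 3 against 3 libraries is 0.1, and each of the 8 genes reached it.

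Among the sensor and patch genes, Dysf stood at 22.6, 17.3 and 21.0 TPM in control and 42.4, 41.0 and 53.8 at WT D1. The groups were well apart, with a log2 difference of 1.13 ± 0.18 (SE) and adjusted p = 0.00251. Trim72 moved by a like amount, from 135, 89.0 and 121 TPM to 263, 220.1 and 242 (1.08 ± 0.19, adjusted p = 0.00316). Cav3 had the smallest difference of the 8 genes, with 70.4, 72.7 and 75.1 TPM in control and 115, 99.9 and 101 at WT D1 (0.52 ± 0.15, adjusted p = 0.0152). Cav3 was thus the one gene whose difference was below that of the median gene, by 0.14 log2 units. Without WT D1 replicate 1, control replicate 1 or control replicate 3 the Cav3 call was lost (log2 differences of 0.46, 0.50 and 0.54).

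The annexins showed the widest differences and the widest spread between WT D1 libraries. Anxa2, a partner of S100a10 at the membrane, rose from 102, 87.3 and 91.3 TPM to 524, 890.3 and 274 (2.42 ± 0.37, adjusted p = 0.00218). Anxa1 rose from 23.3, 23.1 and 23.5 TPM to 88.4, 151 and 35.8 (1.71 ± 0.44, adjusted p = 0.0108). In both genes WT D1 replicate 2 was highest and replicate 3 lowest, and even replicate 3 lay above all controls. Anxa5 repeated that order, with 72.5, 61.1 and 70.9 TPM in control and 219, 352 and 107 at WT D1 (1.56 ± 0.37, adjusted p = 0.00832). Anxa6, the annexin with paired core domains, was tighter, at 128, 98.9 and 112 TPM against 288, 283 and 229 (1.23 ± 0.17, adjusted p = 0.00179). Chmp4b of the ESCRT-III filament rose from 106, 97.5 and 109 TPM to 193, 276 and 185 (1.04 ± 0.19, adjusted p = 0.00341).

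**Figure D1:**
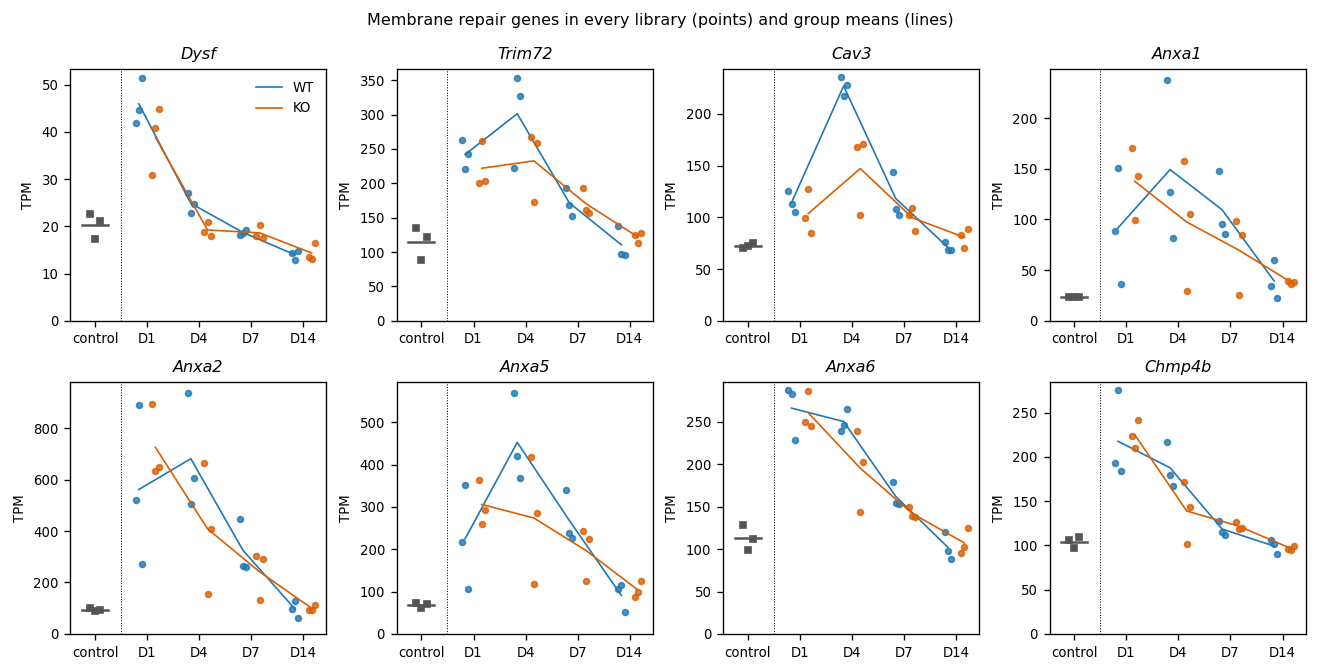
TPM of each of the 8 genes (y axis, linear, from 0) in control (grey squares) and in WT (blue) and KO (orange) muscle on days 1, 4, 7 and 14 after cardiotoxin (x axis), with points for single libraries (3 per group), lines through group means and a bar at the control mean. Control comes from the other deposited table (left of the dotted line); Dysf is highest at D1 and lowest at D14, Cav3 peaks in WT at D4, and the annexin points of WT D1 spread widely.

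Several of these calls depended on the scale. Control libraries gave 57.4 to 60.7% of their TPM to their 50 most abundant genes against 32.7 to 48.1% at WT D1, and scaling each library by its median ratio moved the median gene from 0.66 to 0.0012. On that scale Anxa2 alone was called (1.63), while Anxa1 stood at 0.93, Anxa5 at 0.77, Anxa6 at 0.44, Dysf at 0.36, Trim72 at 0.29 and Chmp4b at 0.25, and Cav3 turned to -0.26. Quantile normalization kept 5 calls (Trim72, Anxa2, Anxa5, Anxa6 and Chmp4b) and put Cav3 at -0.00735. Anxa2 was called higher under each of the 9 alternatives that kept all libraries and under each of the 6 that left a library out.

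**Figure D2:**
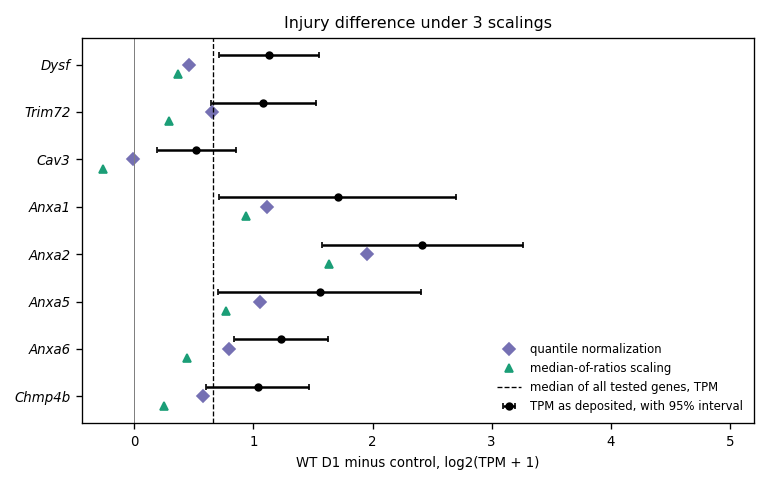
WT D1 minus control on the log2(TPM + 1) scale (x axis) for the 8 genes (y axis), as deposited with 95% intervals (black circles) and after quantile normalization (purple diamonds) or median-of-ratios scaling (green triangles), with the median of all tested genes dashed at 0.66. Anxa2 stays far to the right on all 3 scales (2.42, 1.95 and 1.63) and Cav3 moves to 0 or below.

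The wider repair machinery was described by 7 lists of 65 genes, of which 58 were tested here. On the deposited scale 40 (69.0%) were called higher and 3 (5.17%) lower, beside 55.4 and 5.64% of all genes, with a median difference of 0.79 beside 0.66 for all genes, but 15 higher and 12 lower after median-of-ratios scaling (median 0.011). No test compared the lists with each other. Of the other annexins and their S100 partners 8 of 9 were higher on the deposited scale and 6 of 9 after that scaling. They included S100a4 (log2 difference 3.82 ± 0.49, SE), Anxa4 (2.68 ± 0.24), S100a6 (2.64 ± 0.35) and S100a11 (2.16 ± 0.38), and these 4 were called on all 3 scales. In the ESCRT and ALG-2 list 13 of 14 were called higher (2 of 14 after that scaling, Pdcd6ip and Pdcd6). Pdcd6ip, or ALIX, which recruits ESCRT-III, stood at 45.2 TPM against 13.9 in control, and Pdcd6, the calcium sensor ALG-2, at 52.9 against 18.5. Among the ferlins and dysferlin partners 5 of 8 were higher and 1 lower, led by the dysferlin relative Myof (28.2 TPM against 4.05, 2.37 ± 0.41), and after median-of-ratios scaling 2 were higher and 3 lower.

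Of 10 dystrophin complex genes 2 were higher (Sgcd, 1.84 ± 0.20, and Sgcb, 0.61 ± 0.18, both sarcoglycans), with a median of 0.14. After median-of-ratios scaling Sgcb was at -0.17 and 5 of the 10 were called lower. The calpain list had 3 of 5 higher and the muscle calpain Capn3 lower (fell by 0.90 ± 0.24), and Capn3 was called lower on all 3 scales, whereas after median-of-ratios scaling 0 of the 5 were higher. Other caveolae genes had 5 of 6 higher on the deposited scale, with Cav2 (1.41 ± 0.27) and Cavin3 (1.28 ± 0.24) first, and 2 of 6 after median-of-ratios scaling (those same 2). In the exocytosis list 4 of 6 were higher (2 higher and 2 lower after median-of-ratios scaling), among them Syt11 (1.49 ± 0.22) and Stx4a (1.28 ± 0.18), which were also called higher on both other scales.

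Markers of other cells moved in the same comparison. All 14 leukocyte genes were higher at WT D1 (median log2 difference 4.13), with a summed level of 178 to 230 TPM in control and 1127 to 5612 at WT D1, where only S100a8 of the list was near 0 in control (0.47 TPM). Of 20 mature myofibre genes 8 were lower and none higher, with a summed level of 108182 to 221450 TPM at WT D1 against 212669 to 230266 in control. Of the tested genes of other lists, 4 of 12 fibro-adipogenic progenitor, 3 of 10 endothelial and 4 of 6 regenerating muscle genes were called higher, and 5 of 9 adipocyte genes and 1 endothelial gene lower. The part of these shifts in the 8 repair genes was not tested. In bulk muscle, more cells of a type and more RNA per cell cannot be told apart. The study describes 2 sequencing batches. The first held injured and opposite-leg muscle 1 day after injury, and the second WT and KO muscle from D1 to D14. WT D1 libraries stand in both tables, and the labels do not place them in a batch. Batch therefore cannot be told apart from injury between control and WT D1. The same holds for genotype at D1 and for the WT step from D1 to D4.

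The second question was how the genes moved on from D1 to D14 in WT muscle, tested from each day to the next in the table of 24 injured libraries. Dysf and Cav3 went opposite ways from D1 to D4. Dysf fell from 41.9, 44.6 and 51.4 TPM at D1 to 27.1, 22.8 and 24.7 at D4 (-0.86 ± 0.14, adjusted p = 0.000318). Cav3 rose from 126, 113 and 105 to 235, 217 and 228 (0.99 ± 0.19, adjusted p = 0.00118). No library of one day overlapped the other in either gene, where 22.1% of all genes lay wholly higher at D4 and 7.39% wholly lower. Both calls held in all 10 alternatives with all libraries and all 6 with a library left out. They were the 2 calls among the 8 genes at this step, against 14.6% of 15718 tested genes called higher and 5.27% called lower. Trim72 was not called (263, 220.2 and 242 at D1, 223, 353 and 327 at D4, 0.29 ± 0.20, adjusted p = 0.329).

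Cav3 then fell again. At D7 it stood at 144, 108 and 103 TPM (-0.95 ± 0.19 against D4, adjusted p = 0.00706), a call kept under every alternative run, and at D14 at 76.5, 68.7 and 68.0 (-0.71 ± 0.19, adjusted p = 0.0130), where median-of-ratios scaling left -0.13 with no call. Its mean therefore went through 114, 227, 118 and 71.0 TPM. Trim72 fell to 193, 169 and 153 at D7 (-0.79 ± 0.20, adjusted p = 0.0192) and 138, 97.2 and 96.2 at D14 (-0.64 ± 0.20, adjusted p = 0.0222). Neither Trim72 step was called after median-of-ratios scaling (-0.49 and -0.056).

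Dysf kept a slow decline. It stood at 18.2, 18.6 and 19.2 TPM at D7, where the difference from D4 of -0.39 ± 0.14 had adjusted p = 0.0633, and at 14.4, 12.8 and 14.7 at D14 (-0.40 ± 0.14, adjusted p = 0.0335). The last call was lost with any of the 6 libraries left out and the direction turned to 0.16 after median-of-ratios scaling and 0.12 after quantile normalization. On the deposited scale its mean level ran from 46.0 ± 4.94 TPM (SD, n = 3) at D1 to 14.0 ± 1.01 at D14.

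Among the annexins, Anxa2 and Anxa5 were called lower from D7 to D14 on each scale tried. Anxa5 stood at 218, 351 and 107 TPM at D1, 569, 419.8 and 369 at D4, 341, 238 and 226 at D7 and 106, 115 and 52.0 at D14. Every D4 library was above every D1 library, as in 22.1% of all genes, but the step of 1.14 ± 0.43 had adjusted p = 0.0701. The fall from D7 to D14 was called (-1.61 ± 0.43, adjusted p = 0.0142). Anxa2 stood at 522, 888 and 273 TPM at D1, 936, 503 and 604 at D4, 449, 266 and 262 at D7 and 98.8, 128 and 63.1 at D14. Its only called step was also D7 to D14 (-1.75 ± 0.47, adjusted p = 0.0141). Both D7 to D14 calls were lost without WT D7 replicate 1 (-1.50 and -1.42) or WT D14 replicate 3 (-1.48 and -1.25).

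Anxa1 also spread widely, at 88.3, 151 and 35.8 TPM at D1, 238, 128 and 82.2 at D4, 147, 95.8 and 85.5 at D7 and 34.3, 60.5 and 22.8 at D14, and no step of it was called (D7 to D14 -1.53 ± 0.60, adjusted p = 0.0572). Anxa6 stood at 287, 283 and 229 TPM at D1 and 239.6, 246 and 265 at D4 (-0.082 ± 0.16, adjusted p = 0.772), with overlapping libraries. It fell to 179, 155 and 153 at D7 (-0.63 ± 0.16, adjusted p = 0.0232) and 119.9, 98.1 and 88.6 at D14 (-0.67 ± 0.16, adjusted p = 0.0106), with neither call left after median-of-ratios scaling (-0.33 and -0.081).

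Chmp4b had its highest WT mean at D1 with 193, 275 and 185 TPM and went to 217, 179.9 and 167 at D4, 128, 116 and 112 at D7 and 106, 101 and 90.5 at D14. Only the D4 to D7 fall was called (-0.65 ± 0.17, adjusted p = 0.0212). In all, 4 of 8 genes fell from D4 to D7 (9.31% of all genes were called lower) and 6 of 8 from D7 to D14 (30.9%). The median gene moved by -0.24 and -0.45 log2 units at those steps, and after median-of-ratios scaling 2 of 8 were called at the first (Cav3 and Chmp4b) and 3 at the second (Anxa2 and Anxa5 lower and Chmp4b higher, 0.33). Leaving out 1 library gave 1 to 4 calls at the first step, with 1 without WT D7 replicate 2 or 3 and 2 without WT D4 replicate 1, and 0 to 5 at the second, with 0 without WT D7 replicate 1 or WT D14 replicate 3.

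Cell-type markers moved over the same days. The summed level of the 14 leukocyte genes was 1126 to 5602 TPM at WT D1, 3063 to 6672 at D4, 1523 to 2098 at D7 and 188 to 646 at D14. The 10 regenerating muscle genes summed to 130 to 207 TPM at WT D1, 3565 to 4383 at D4, the day of the highest Cav3, 361 to 1219 at D7 and 28.6 to 73.0 at D14. The part of either shift in the steps of the 8 genes was not tested.

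Among the other repair lists, 4 of 60 tested genes rose and 6 fell from D1 to D4 in WT, beside 14.6 and 5.27% of all genes, and 1 rose and 16 fell after median-of-ratios scaling. On the deposited scale Anxa7 (fell by 1.06 ± 0.20, SE), Ahnak, a giant dysferlin partner (fell by 0.66 ± 0.20), and Sgcd (fell by 0.95 ± 0.19) were called lower. Cav2 (-0.84 ± 0.27), Vps4a (-0.37 ± 0.10) and Chmp7 (-0.36 ± 0.11) were also called lower. Capn3 (0.73 ± 0.21), Dag1 (0.65 ± 0.17), Utrn (0.55 ± 0.19) and Cavin3 (0.83 ± 0.26) were called higher. From D7 to D14 21 of 60 (35.0%) fell, near the 30.9% of all genes, and 0 rose (3 lower and 1 higher after median-of-ratios scaling). The largest differences were those of S100a4 (-2.49 ± 0.61) and S100a11 (-1.90 ± 0.46), and Myof (-1.51 ± 0.55) and Cavin3 (-1.29 ± 0.26) led their own lists.

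In KO muscle the called steps were falls of Dysf and Chmp4b from D1 to D4. Dysf stood at 31.0, 40.8 and 44.8 TPM at D1 and 18.8, 20.9 and 18.0 at D4 (-0.96 ± 0.14, adjusted p = 0.000219), then 18.0, 20.4 and 17.5 and 13.5, 13.2 and 16.4. Chmp4b fell from 223, 211 and 242 to 171, 102 and 143 (-0.72 ± 0.17, adjusted p = 0.00688), and then stood at 127, 119 and 119 and 95.9, 95.2 and 98.8. All 3 D4 libraries lay below all D1 libraries in both genes, as they did in 19.8% of all genes. At this step 12.2% of all genes were called lower and 7.18% higher. Both calls were lost when only these 2 groups were fitted. Cav3 stood at 99.4, 127 and 84.5 at D1 and 168, 102 and 171 at D4 (0.48 ± 0.19, adjusted p = 0.0715), and without KO D4 replicate 2 the step was 0.73 and called. No member was called from D4 to D7 (3 of 8 lower at an unadjusted p under 0.05, limma, as 7.69% of all genes) or from D7 to D14 (4 of 8, as 16.1%), where 0 and 0.477% of all genes were called lower.

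Trim72 in KO stood at 199.8, 262 and 204 TPM at D1, 267, 173 and 258 at D4, 194, 161 and 157 at D7 and 124, 113 and 128 at D14, and Cav3 ended with 102, 109 and 87.3 at D7 and 83.1, 70.1 and 88.9 at D14. Anxa1 stood at 171, 99.7 and 143 TPM at D1, 158, 28.9 and 106 at D4, 98.9, 25.9 and 84.6 at D7 and 39.4, 36.5 and 38.6 at D14. Replicate 2 at D4 and replicate 2 at D7 were far below their groups, and the same libraries were lowest for Anxa2 and Anxa5. Anxa2 stood at 892, 633 and 651 TPM at D1, 663, 155 and 407 at D4, 303, 130.0 and 292 at D7 and 93.9, 92.5 and 113 at D14. Anxa5 stood at 365, 259.8 and 293 TPM at D1, 419, 117 and 286 at D4, 242, 125 and 225 at D7 and 87.9, 98.8 and 124 at D14. By D14 the KO libraries of each annexin lay below those of D1. At D14 the Anxa1 libraries lay close together (36.5 to 39.4 TPM), whereas Anxa5 ran from 87.9 to 124 TPM and Anxa6 from 94.8 to 125. D14 was not tested against D1, and the share of all genes lying wholly below D1 was not counted. Anxa6 stood at 249.9, 287 and 245 TPM at D1, 239.6, 144 and 202 at D4, 149.5, 139 and 137 at D7 and 94.8, 102 and 125 at D14, with KO D4 replicate 2 again lowest of its group.

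By D14 the levels can be set beside control, though the tables were made separately and no test was run between them. The study describes control muscle in the first sequencing batch and D14 muscle in the second, so batch cannot be told apart from these differences. WT D1 libraries, which stand in both tables, differed between tables by at most 0.535% for 6 of the genes, by -4.46 to 8.67% for Dysf and by 4.17 to 12.7% for Cav3. These values compare 2 quantifications of the same libraries and do not measure batch. Dysf was the furthest under its control mean of 20.3 TPM at D14, with 14.0 in WT and 14.4 in KO (0.69 and 0.71 of control). Its 6 D14 libraries (12.8 to 16.4 TPM) were all below the 3 controls (17.3 to 22.6 TPM). The share of all genes lying wholly below control at D14 was not counted. The Anxa1 mean was above control, at 39.2 in WT and 38.2 in KO against 23.3 (1.68 and 1.64 of control), and that of Anxa5 at 90.9 and 104 against 68.2 (1.33 and 1.52). In both genes WT D14 replicate 3 was below all 3 controls, and every other D14 library was above them. That library had 22.8 TPM of Anxa1 (23.1 to 23.5 in control) and 52.0 of Anxa5 (61.1 to 72.5 in control). The other 5 genes were between 0.90 and 1.11 of control.

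The third comparison asked whether Gsdme loss altered the repair genes. No member was called between KO and WT on any day (limma, lowest adjusted p = 0.873 at D1, 0.212 at D4, 0.776 at D7 and 1 at D14), and 0.00636%, 0, 0 and 0% of all genes were called either way. At an unadjusted p under 0.05 there were 0, 4, 0 and 0 members (5.38, 22.7, 3.06 and 2.06% of all genes). The 4 at D4 were all lower in KO, where 19.1% of all genes passed that threshold as lower and the median gene was at -0.28. Averaged over days 0 were called (0.00636% of all genes) and 2 were lower at an unadjusted p under 0.05 (2.35% of all genes).

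Cav3 had the clearest D4 difference, with 235, 217 and 228 TPM in WT against 168, 102 and 171 in KO and no overlap (-0.66 ± 0.19, 95% interval -1.05 to -0.27, adjusted p = 0.212). Dysf also had no overlap, at 27.1, 22.8 and 24.7 against 18.8, 20.9 and 18.0 (-0.35 ± 0.14, interval -0.64 to -0.070, adjusted p = 0.212). For both, the exact permutation p was 0.1, the lowest 3 against 3 allows, and 11.2% of all genes lay wholly lower in KO that day. Anxa6 (-0.39 ± 0.16) and Chmp4b (-0.46 ± 0.17) were the others past the unadjusted threshold, with overlapping libraries. Without KO D4 replicate 2 the 4 differences were -0.42 for Cav3, -0.41 for Dysf, -0.18 for Anxa6 and -0.25 for Chmp4b. After median-of-ratios scaling they were -0.30, -0.00959, -0.031 and -0.10.

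The intervals limit what could have been seen. At D4 Anxa2 was at -0.92 ± 0.47 (interval -1.90 to 0.066), Anxa5 at -0.88 ± 0.43 (-1.78 to 0.024) and Anxa1 at -0.78 ± 0.60 (-2.03 to 0.48). Without KO D4 replicate 2 these were -0.34, -0.36 and -0.071. At D1 the same 3 annexins were higher in KO by 0.51, 0.59 and 0.77 with intervals that took in 0, while WT D1 replicate 3 was their lowest library. Dysf and Cav3 had tighter intervals, at D14 from -0.25 to 0.32 for Dysf and from -0.21 to 0.57 for Cav3.

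Averaged over the 4 days, Cav3 was at -0.22 ± 0.0933 (interval -0.41 to -0.024, exact permutation p = 0.0525) and Dysf at -0.14 ± 0.0678 (-0.29 to -0.00231, exact permutation p = 0.0397), with genotypes exchanged within days. After median-of-ratios scaling they were at -0.13 and -0.059, and the median of all genes on the deposited scale was -0.071. Neither was called by limma over all genes (adjusted p = 0.861 and 0.861). The other 6 averages lay between -0.20 for Anxa2 and -0.089 for Trim72, with exact permutation p-values from 0.125 to 0.623. At D7 Anxa6 was wholly lower in KO (149.5, 139 and 137 TPM against 179, 155 and 153, -0.19 ± 0.16), as 14.6% of all genes were.

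**Figure D3:**
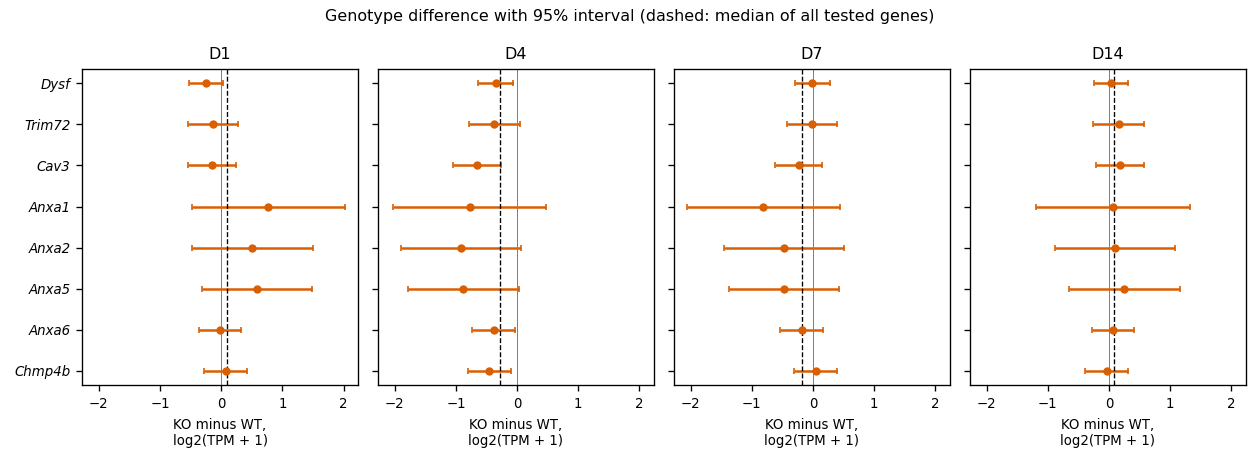
KO minus WT on the log2(TPM + 1) scale (x axis) for each of the 8 genes (y axis) on days 1, 4, 7 and 14, with 95% intervals from limma and the median of all tested genes dashed. At D4 all 8 genes lie left of 0 (between -0.35 and -0.92) and left of the median gene, itself at -0.28. At D14 they lie between -0.035 (Chmp4b) and 0.25 (Anxa5).

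Whether the steps themselves differed by genotype was tested directly. None of the 8 genes was called for a KO minus WT difference in any step, nor for a difference between days (0 of all genes in each, limma, lowest member adjusted p = 0.204 for a step and 0.527 between days). Between days Cav3 alone was at an unadjusted p under 0.05 (7.65% of all genes were). For the D1 to D4 step 3 members were at an unadjusted p under 0.05, all lower in KO (18.8% of all genes were). These were Anxa5 (-1.47 ± 0.61), Anxa2 (-1.43 ± 0.67) and Chmp4b (-0.53 ± 0.24). Without KO D4 replicate 2 they were at -0.95, -0.85 and -0.32. Chmp4b alone was at an unadjusted p under 0.05 for the D4 to D7 step (0.50 ± 0.24, as 1.27% of all genes were higher in KO), and none was for the D7 to D14 step (3.09% of all genes). In the other repair lists 0 of 60 tested genes were called between genotypes on any day, and 4, 13, 2 and 0 passed an unadjusted threshold of 0.05 on the successive days (limma), beside 5.38, 22.7, 3.06 and 2.06% of all genes. Of these genes 4, 12 and 2 were lower in KO at D1, D4 and D7.

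In 6 of the 8 injured groups the library lowest in leukocyte genes was also lowest in Anxa1, Anxa2 and Anxa5, the exceptions being WT D4 (Anxa2 lowest in another library) and KO D14 (Anxa1 and Anxa2). In all 8 groups that library also had the fewest genes at 1 TPM or more. It also gave the largest share of TPM to its 50 most abundant genes (51.1% in KO D4 replicate 2 against 33.5 and 39.3%). How many of all genes were lowest in the same libraries was not counted. At WT D1 the summed leukocyte level was 3357, 5602 and 1126 TPM in replicates 1 to 3, the order in which Anxa1, Anxa2 and Anxa5 also stood. At KO D4 it was 4214, 518 and 3502, and at KO D7 1452, 569 and 1342, with replicate 2 lowest each time as in the 3 annexins. Dysf was highest in the library lowest in leukocyte genes in 5 of the 8 groups, among them KO D4 (20.9 TPM against 18.8 and 18.0) and WT D1 (51.4 against 41.9 and 44.6). It was not in KO D1, WT D4 and KO D14, and in KO D1 and WT D4 the highest Dysf (44.8 and 27.1 TPM) stood in the library highest in leukocyte genes. The part of leukocytes, or of the share taken by abundant genes, in the annexin levels was not tested.

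**Figure D4:**
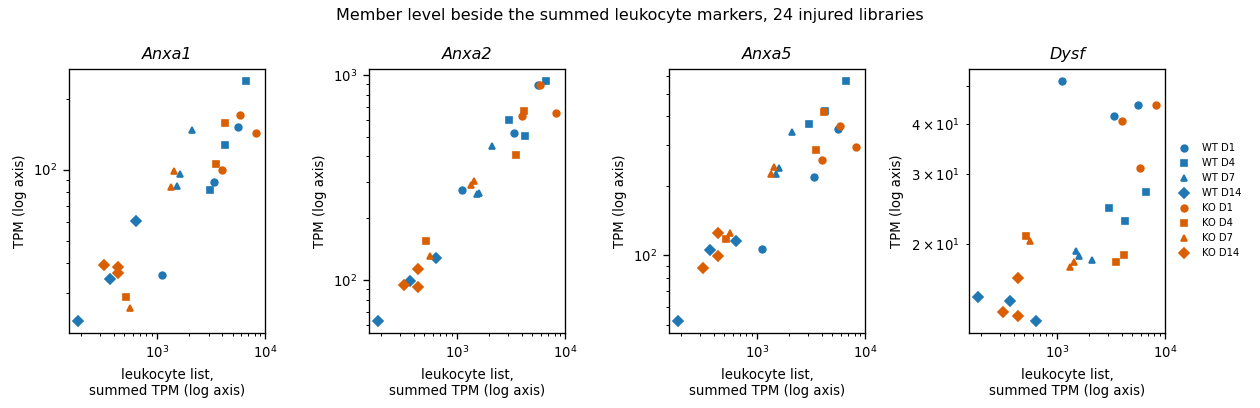
TPM of Anxa1, Anxa2, Anxa5 and Dysf (y axis, log scale) against the summed TPM of 14 leukocyte genes (x axis, log scale) in the 24 injured libraries, with colour for genotype (WT blue, KO orange) and marker shape for day. Points of the 3 annexins lie higher where the leukocyte sum is higher. Between days Dysf goes the same way, with its lowest group means at D14, where the mean log2 level of the leukocyte genes is also lowest. Within groups, the library lowest in leukocyte genes is the highest for Dysf in 5 of 8 groups.

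Set against the mature myofibre list, all 8 genes were relatively most abundant at D1 or D4. Dysf lay -7.48 ± 0.084 log2 units (SD, n = 3) from the mean of 20 myofibre genes in control, -5.40 ± 0.28 at WT D1, -5.73 ± 0.84 at WT D4 and -7.63 ± 0.051 at WT D14. Trim72 went from -5.04 ± 0.21 in control to -3.03 ± 0.28 at WT D1 and -2.21 ± 0.41 at WT D4, and Cav3 from -5.68 ± 0.13 to -4.10 ± 0.40 and -2.59 ± 0.78. A difference taken within a library hardly depends on how the library was scaled, and it shows unequal change of the gene and the list, which itself had 8 of 20 genes lower at WT D1. Against the mean of the 14 leukocyte genes the direction was the other way, with Dysf at 1.68 ± 0.17 in control and -1.08 ± 1.35 at WT D1, and Trim72 at 4.12 ± 0.28 and 1.29 ± 1.28. At D14 Trim72 was back at -4.75 ± 0.25 in WT and -4.55 ± 0.14 in KO, and Cav3 at -5.36 ± 0.067 and -5.14 ± 0.20.

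The genes with the most similar course were found by Pearson's r of log2(TPM + 1) over the 24 injured libraries, as a description across libraries that share groups and days. The nearest 3 were Nploc4, Cd151 and Psmd3 for Dysf, Polr2l, Ube2m and 1810058I24Rik for Trim72 and Avpi1, Naxe and Sil1 for Cav3. For the annexins they were Ugdh, Twf1 and Adam17 (Anxa1), Emp3, Prelid1 and Tcf19 (Anxa2), Papss1, Scpep1 and Arf4 (Anxa5) and Polr2e, Tmbim1 and Rbm42 (Anxa6), and for Chmp4b Pes1, Arf1 and Eif3c. These r values lay between 0.94 and 1.00. Between members, r was lowest for Dysf with Cav3 (0.30) and Dysf with Anxa1 (0.39) and highest for Anxa1 with Anxa5 (0.94). Trim72 was closer to Anxa6 (0.91) and Cav3 (0.84) than to Dysf (0.64), and Chmp4b lay closest to Anxa6 (0.93) and Anxa2 (0.90).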

How the data were processed

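RNA from 27 muscle samples was sequenced as paired-end reads, and the authors deposited 2 tables of TPM per gene, on mm10 per the labels. Aligner and quantifier were not given in the sources used here. The tables were quantified separately, so tests were run within a table. TPM is relative, so a few abundant genes can shift all others. log2(TPM + 1) was fitted with limma 3.58.1 (R 4.3.3) on genes with at least 1 TPM in at least 3 libraries, with group means, contrasts, a variance trend and Benjamini-Hochberg adjustment over all tested genes (threshold 0.05). The script was tested on simulated data. Single values had exact 2-sided permutation tests over all assignments (NumPy 2.4.6). Where libraries are not from separate animals, p-values measure technical spread. Alternatives covered pseudocount, filter, scaling, variance model, library weights, groups fitted, replicate block and left-out libraries. Members and lists were chosen with earlier results of these data known. At most 4 called genes per repair list, those of largest absolute difference, were named. The authors' group means in the tables were not used. A named result is not reported here.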

Additional observations from a re-analysis of the deposited data

How the results depend on the processing

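Read depth could not be recovered from TPM, and 3 libraries a group limit the precision. Counts of called genes moved by over 1.5 times under some alternatives. For WT D1 minus control the count went from 8 to 1 with median-of-ratios scaling and 5 with quantile normalization. For WT D4 minus D1 it went from 2 to 4 with median-of-ratios scaling. For WT D7 minus D4 it went from 4 to 2 with median-of-ratios scaling, 1 with quantile normalization or without the 50 most abundant genes, and 7 with library weights. For WT D14 minus D7 it went from 6 to 3 with median-of-ratios scaling and 2 with quantile normalization or without the 50 most abundant genes. For KO D4 minus D1 it went from 2 to 4 without the 50 most abundant genes and 0 with only those groups fitted. Library weights gave 1 for KO D7 minus D4 and 7 for KO D14 minus D7, from 0. The cause was not tested. Between genotypes no member was called under any alternative run. With 1 library left out the counts ran from 7 to 8 for WT D1 minus control, 2 to 3 for WT D4 minus D1, 1 to 4 for WT D7 minus D4, 0 to 5 for WT D14 minus D7, 2 to 4 for KO D4 minus D1 and 0 to 2 for KO D7 minus D4. Median-of-ratios scaling turned the direction for WT D1 minus control Cav3 (-0.26), for KO minus WT at D1 Chmp4b (-0.047), for KO minus WT at D7 Dysf (0.21), Trim72 (0.22) and Anxa6 (0.040), for KO minus WT at D14 Dysf (-0.073), Anxa1 (-0.038), Anxa2 (-0.013) and Anxa6 (-0.042), for WT D14 minus D7 Dysf (0.16) and Chmp4b (0.33), for KO D7 minus D4 Dysf (0.12) and Chmp4b (0.014), for the KO minus WT difference of the D1 to D4 step Dysf (0.35), Trim72 (0.23) and Anxa6 (0.11), for the KO minus WT difference of the D7 to D14 step Dysf (-0.28), Trim72 (-0.17) and Anxa6 (-0.082). Quantile normalization turned the direction for WT D1 minus control Cav3 (-0.00735), for KO minus WT at D1 Chmp4b (-0.00189), for KO minus WT at D7 Dysf (0.18) and Trim72 (0.092), for KO minus WT at D14 Dysf (-0.065), Anxa1 (-0.040) and Anxa6 (-0.018), for WT D14 minus D7 Dysf (0.12) and Chmp4b (0.11), for KO D7 minus D4 Dysf (0.15) and Chmp4b (0.056), for the KO minus WT difference of the D1 to D4 step Dysf (0.27) and Trim72 (0.073), for the KO minus WT difference of the D7 to D14 step Dysf (-0.24) and Trim72 (-0.026). Library weights turned the direction for KO minus WT at D1 Chmp4b (-0.027), for KO minus WT at D4 Anxa2 (0.11), for KO minus WT at D7 Anxa2 (0.014), for KO minus WT averaged over days Anxa1 (0.23), Anxa2 (0.24) and Anxa5 (0.16), for WT D4 minus D1 Anxa2 (-0.00581), for KO D4 minus D1 Anxa5 (0.00440), for the KO minus WT difference of the D1 to D4 step Dysf (0.30), for the KO minus WT difference of the D4 to D7 step Anxa2 (-0.094) and Anxa6 (-0.030). Leaving out the 50 most abundant genes turned the direction for KO minus WT at D7 Dysf (0.12) and Trim72 (0.12), for KO minus WT at D14 Dysf (-0.037) and Anxa6 (-0.00262), for WT D7 minus D4 Anxa1 (0.012), for WT D14 minus D7 Chmp4b (0.12), for KO D7 minus D4 Dysf (0.19) and Chmp4b (0.079), for the KO minus WT difference of the D1 to D4 step Dysf (0.20) and Trim72 (0.075), for the KO minus WT difference of the D7 to D14 step Dysf (-0.16) and Trim72 (-0.037). With 1 library left out, log2 differences took both signs for KO minus WT at D1 Anxa6 -0.13 to 0.032 and Chmp4b -0.036 to 0.25, for KO minus WT at D7 Dysf -0.072 to 0.032 and Trim72 -0.11 to 0.079, for KO minus WT at D14 Dysf -0.060 to 0.089, Anxa1 -0.25 to 0.43, Anxa2 -0.18 to 0.33, Anxa5 -0.10 to 0.46, Anxa6 -0.044 to 0.19 and Chmp4b -0.10 to 0.014, for KO minus WT averaged over days Anxa5 -0.24 to 0.000869, for WT D4 minus D1 Anxa2 -0.050 to 0.80, for WT D7 minus D4 Anxa1 -0.71 to 0.057, for KO D4 minus D1 Trim72 -0.061 to 0.25 and Anxa5 -0.72 to 0.19, for KO D7 minus D4 Dysf -0.11 to 0.014, Anxa1 -1.09 to 0.21, Anxa5 -0.86 to 0.048 and Chmp4b -0.36 to 0.00973, for the KO minus WT difference of the D1 to D4 step Dysf -0.26 to 0.00247, for the KO minus WT difference of the D4 to D7 step Anxa1 -0.74 to 0.56, Anxa2 -0.14 to 0.90, Anxa5 -0.11 to 0.80 and Anxa6 -0.00434 to 0.36, for the KO minus WT difference of the D7 to D14 step Dysf -0.051 to 0.11. Same-numbered libraries of different groups correlated in their deviations from -0.40 to 0.39, which with 3 libraries a group cannot settle whether they were paired. Control and WT D1 were tested as independent groups, although the study describes control as muscle of the opposite leg. With the replicate number as a block, 7 members were called for WT D14 minus D7, as Anxa1 was added (-1.53), and no other call changed.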
